A study of Mus musculus with 7 samples.

Results

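The granins and the membrane proteins of the insulin granule were followed in MIN6 cells. This line grew from a mouse insulinoma and stores insulin in dense-core secretory granules. The 10 genes, of 22911 named on the array, were the granins Chga, Chgb, Scg2, Scg3 and Vgf, the transmembrane phosphatase-like proteins Ptprn and Ptprn2, and the small GTPases Rab3a, Rab27a and Rab37. Their probes were found by matching each probe's transcript to a RefSeq gene table, which gave 16 probes of the 56605 non-control probes on the array. The genes Chga, Chgb, Scg2, Scg3 and Rab37 had 1 probe each, Vgf, Ptprn, Rab3a and Rab27a had 2 each, and Ptprn2 had 3. Treated cells had MPE, a Maidong polysaccharide extract, in the medium for 3 days (4 arrays), and control cells had phosphate-buffered saline as vehicle for 3 days (3 arrays). Both groups were kept in DMEM with fetal bovine serum, penicillin, streptomycin and 2-Mercaptoethanol. The labels list several MPE concentrations without naming the one used for the arrays, and they do not say whether replicates were separate cultures, so p-values here reflect the spread among these arrays alone, part or all of which may be technical. The arrays lay on 1 slide, with MPE in slide row 2 and vehicle in slide row 1. Treatment and row of the slide therefore cannot be told apart.

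Granins are acidic proteins that aggregate with calcium in the trans-Golgi network, take part in forming dense-core granules, and are released with the hormone when the granule fuses. Proteases in the granule cut several of them into shorter peptides. Ptprn and Ptprn2 span the granule membrane with phosphatase domains that have lost their usual activity, and both are targets of autoantibodies in autoimmune diabetes. The Rab GTPases sit on the outside of the granule and recruit the effectors that bring it to the plasma membrane.

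Between 27901 and 30111 probes per array were well above background by the scanner software's flag, and no non-control spot was saturated. Arrays correlated at 0.994 to 0.997 within MPE and at 0.996 to 0.998 within vehicle over probes detected on all arrays. The beta-cell label was checked on 12 marker genes, of which 12 were well above background on all 7 arrays. Their summed signal, as multiples of each array's 75th percentile, was 3136 to 3573 on MPE arrays and 3280 to 4096 on vehicle arrays. All 12 were fitted lower with MPE, none called (median log2 difference -0.066), against 10 of 12 with quantile normalization (median -0.021). Of the hormones of other islet cells, chosen after their values were seen, Gcg (glucagon) had log2 signals of 4.79, 4.82, 4.78 and 4.95 on MPE arrays, against 4.79, 4.92 and 4.81 on vehicle arrays, relative to the 75th percentile. Sst (somatostatin) had 3.78, 3.72, 4.18 and 4.39 with MPE, against 3.66, 4.00 and 4.38 with vehicle. Ppy (pancreatic polypeptide) had 2.93, 2.97, 1.28 and 1.52 with MPE, against 3.01, 2.30 and 1.41 with vehicle. These 3 hormones were well above background on all 7 arrays. Ppy was lower on MPE replicates 3 and 4 and vehicle replicate 3 than on the other arrays. Sst ran the opposite way, higher on those replicates than on the other arrays. Gcg was lowest on MPE replicate 3 and highest on MPE replicate 4. Of 13 exocrine and duct markers, 5 were well above background on all arrays, with sums of 11.51 to 15.19 with MPE and 9.777 to 14.22 with vehicle, while Cpa1, Prss2, Pnlip, Amy2a5 and Sox9 were above background on no array. Of 15 stromal, endothelial and immune markers, 7 were well above background on all arrays, with sums of 25.3 to 26.9 with MPE and 27.0 to 31.8 with vehicle, while Col1a1, Col3a1, Pdgfrb, Kdr and Adgre1 were above background on no array. At an unadjusted limma p under 0.05, 3 of the 7 tested stromal, endothelial and immune markers were lower, in a background of 3.35% of all genes. These were Itgam, Tagln and Esam, at 0.783, 0.793 and 0.867 times vehicle. Itgam had the highest signal of the 15 markers, at a mean log2 of 3.92 with MPE and 4.27 with vehicle. It therefore weighs most in the sums of that list, which add signals on the linear scale. Acta2, the next highest, was at 2.74 with MPE and 2.68 with vehicle. Of 6 tested exocrine and duct markers 1 was higher, Cel at 3.09 times vehicle, in a background of 0.756%. None of these passed the adjusted threshold. The part of these signals in the results below was not tested.

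All 16 probes were well above background on all 7 arrays, so none entered the comparison through 1 group alone. Signals are given as log2 values relative to each array's 75th percentile of processed signal, where 0 is the signal of that percentile. By the brightest probe of each gene, all 5 granins lay above the 99th percentile of signal on every array. The signal order ran Chga, Chgb, Scg2, Scg3, Vgf, Ptprn2, Rab3a, Ptprn, Rab37 and Rab27a, from a mean of 9.61 ± 0.16 for Chga to 0.77 ± 0.17 for Rab27a (SD over the 7 arrays). In that order only Scg2 and Scg3 (8.38 ± 0.06 and 8.29 ± 0.10) and Vgf and Ptprn2 (7.21 ± 0.12 and 6.91 ± 0.12) had ranges over the arrays that overlapped with their neighbour. Probes differ in how strongly they bind their target, so the order is one of probe brightness and not of transcript number. Probes of 1 gene also differed in brightness, though the 2 Rab3a probes are assigned to different transcripts. The part of probe binding in such differences was not tested. Between the brightest and the dimmest probe of 1 gene the mean log2 signal differed by 7.04 for Ptprn2, 5.55 for Vgf, 4.42 for Rab3a, 4.11 for Rab27a and 3.62 for Ptprn.

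**Figure D1:**
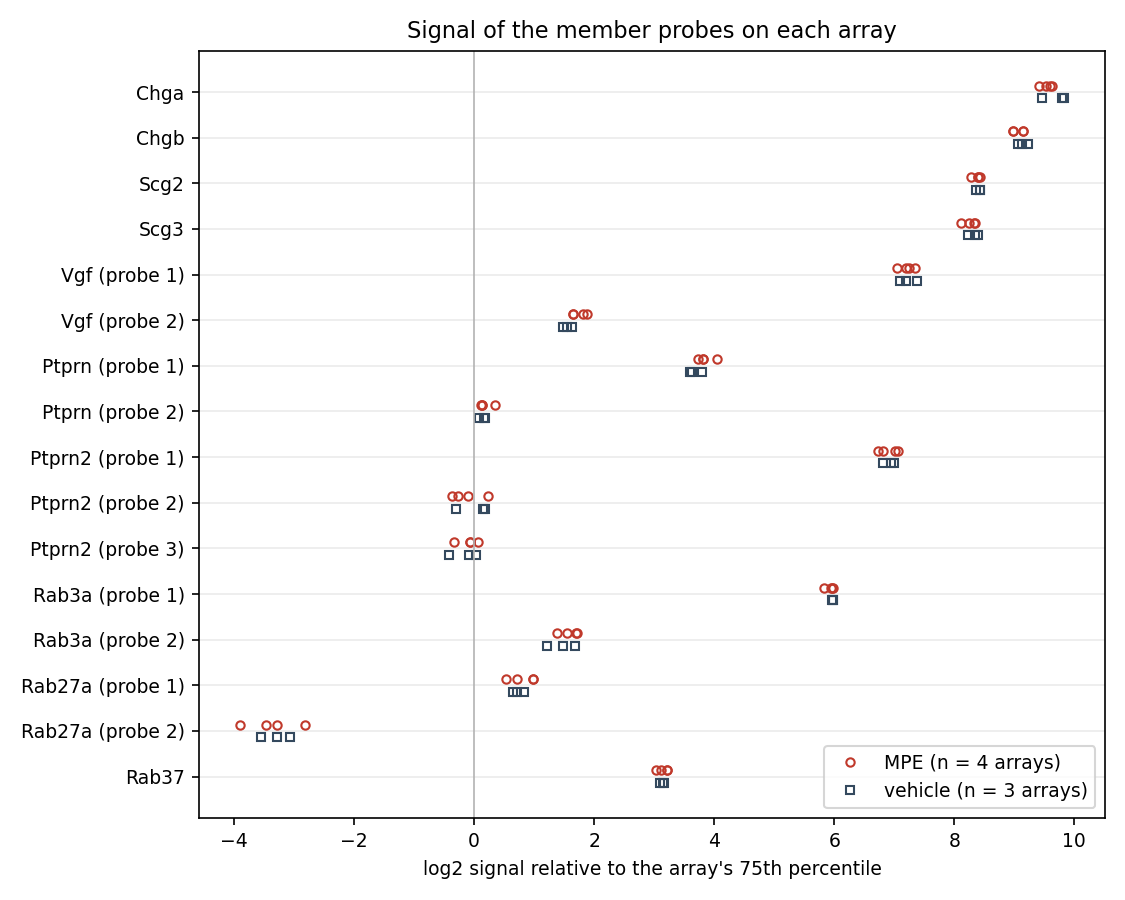
Log2 signal of each of the 16 probes relative to the array's 75th percentile (x axis), with MPE arrays (circles, n = 4) drawn above vehicle arrays (squares, n = 3) in each row. Probes of a gene are numbered from bright to dim. The granin probes lie at the right, from 7.05 to 9.82 for the brightest probe of each granin, and the dimmer probes of Vgf, Ptprn, Ptprn2, Rab3a and Rab27a lie far to the left of the bright ones.

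Promoter stretches are shown for 4 members that hold a cyclic AMP response element or its shorter core and whose stretch lies outside the gene's annotated span. Cyclic AMP response elements, which the activator CREB binds, are known in promoters of several neuroendocrine genes. RefSeq promoters (GRCm38.p6) matched 8 of the 10 genes with 11 promoters, and Vgf and Rab37 were not matched. The 250 bases before each start were searched on both strands for TGACGTCA, which reads the same on both strands, and for the shorter TGACG, which every TGACGTCA also contains. The full element was in 2 of the 11 member promoters (Scg2 and Chgb) and in 1.55% of 32851 promoters of that length, and the shorter one was in 7 of the 11 and in 17.8% of all. The TATA box TATAAA was in 0 of the 11 and in 12.4% of all. Capitals mark the element, each stretch runs 5′ to 3′ on the gene's strand, and all 4 lie before the gene's first listed base. The stretches of Scg3, Ptprn and Rab27a that hold the shorter core lie before 1 listed start but inside the gene's span, and are not printed.
Scg2, chr1:79440067-79440114, minus strand: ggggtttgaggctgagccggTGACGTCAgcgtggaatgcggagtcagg
Chgb, chr2:132781550-132781597, plus strand: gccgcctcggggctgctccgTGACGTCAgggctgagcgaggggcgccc
Chga, chr12:102554877-102554921, plus strand: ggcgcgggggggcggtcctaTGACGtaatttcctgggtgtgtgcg
Rab3a, chr8:70754647-70754691, plus strand: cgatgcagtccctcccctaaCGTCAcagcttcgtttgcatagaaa
In Rab3a the shorter element stands on the other strand. A match describes these letters only and is not evidence that a factor binds there.

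The comparison of MPE with vehicle asks whether transcripts of granule cargo and granule membrane differ after 3 days with the extract. None of the 16 probes passed limma's moderated test at an adjusted p under 0.05 over all 28938 probes tested, with 0 called higher and 0 called lower, and each had an adjusted p of 1. Over all probes 0.0104% were called (0.00346% higher and 0.00691% lower), so 0 calls among the 16 is near the background share. At an unadjusted p under 0.05 the members held 1 probe, in a background of 4.16% (0.812% higher and 3.35% lower). The fitted log2 differences ran from -0.15 for Chga to 0.19 for the dimmer Vgf probe, with a median of -0.01 over the 16 probes, against -0.014 over all probes tested. By the brightest probe of each gene 3 members were fitted higher and 7 lower, which became 2 and 8 with median scaling, 7 and 3 with quantile normalization and 8 and 2 in the authors' deposited value table, so no direction was read for the group. The 565 probes above the 99th percentile of signal, which include 5 member probes, had a median log2 difference of -0.059 in the main setting, 0.001 with quantile normalization and -0.129 with median scaling. Of the 16 probes, 15 had a 95% interval lying wholly within 1.5-fold of no difference and 16 one within 2-fold. Of all probes tested, 81.6% and 94.6% did. RNA came from whole cultures, so fewer cells of a kind and less RNA per cell cannot be told apart.

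**Figure D2:**
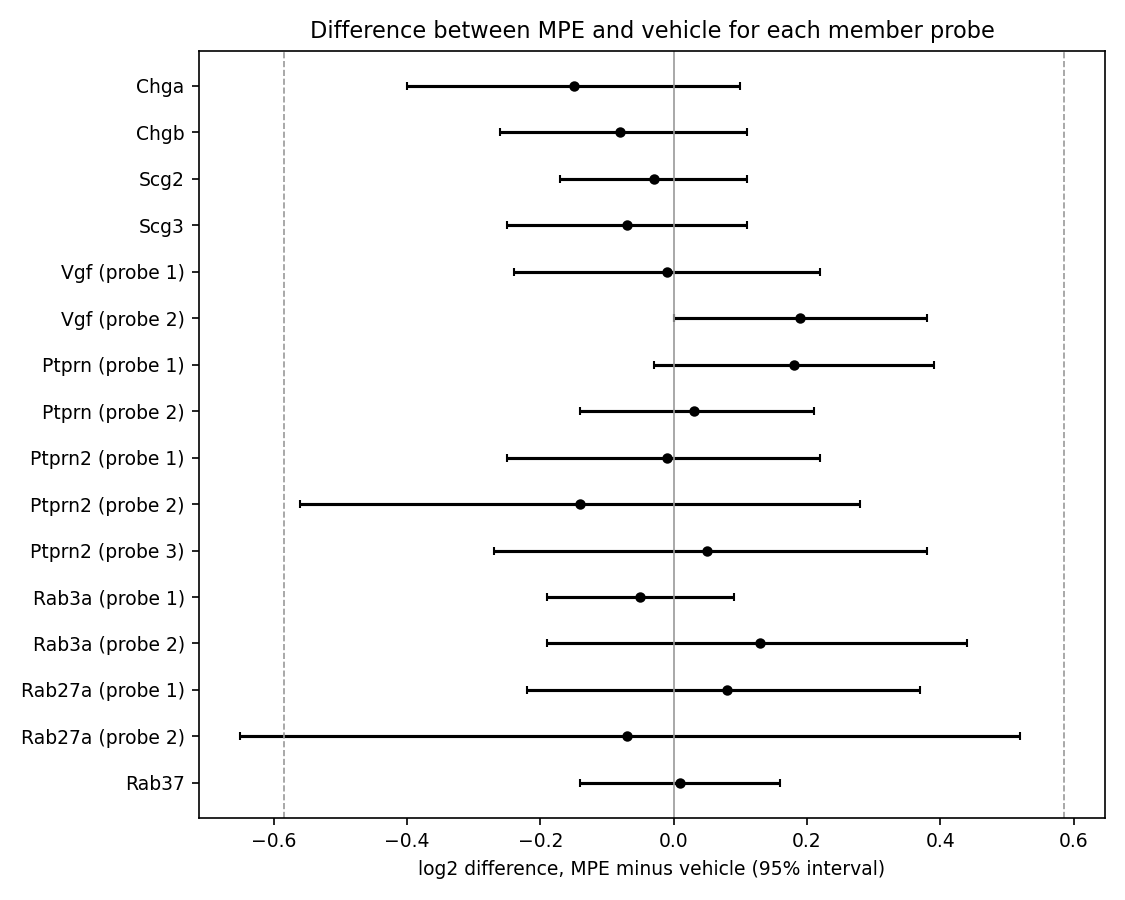
Log2 difference, MPE minus vehicle, for each of the 16 probes (point) with its 95% interval from limma (bar), and dashed lines at 1.5-fold in each direction. The bars of 15 probes stay inside the dashed lines, and that of the dimmest probe, Rab27a probe 2, crosses the left one.

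Among the granins, Chga (chromogranin A, which is cut into peptides such as pancreastatin) had log2 signals of 9.63, 9.60, 9.40 and 9.54 on the MPE arrays, against 9.80, 9.82 and 9.46 on the vehicle arrays. Vehicle replicates 1 and 2 stood above all MPE arrays, while vehicle replicate 3 lay inside the MPE range. MPE was at 0.900 times vehicle (95% interval 0.756 to 1.07), or -0.15 on the log2 scale with an SE of 0.11 and a limma adjusted p of 1. The log2 difference was -0.223 with each array scaled to its median and -0.008 with quantile normalization. Single arrays moved it in both directions, to -0.269 without vehicle replicate 3 (limma adjusted p = 0.868), and to -0.09 without vehicle replicate 2, -0.1 without vehicle replicate 1 and -0.107 without MPE replicate 3.

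Chgb (chromogranin B, also known as secretogranin I) had 10 spots of the same probe on every array, so the spread between spots of an array could be set beside the spread between arrays. Its array means were 9.15, 9.15, 8.98 and 8.98 with MPE, against 9.24, 9.14 and 9.05 with vehicle, and the groups overlapped. The SD over its 10 spots within an array was 0.034 to 0.058, while the SD of array means within groups was 0.097. MPE replicates 3 and 4 lay below MPE replicates 1 and 2 with no spot shared between their ranges, at 8.91 to 9.04 and 8.93 to 9.03, against 9.07 to 9.26 and 9.08 to 9.25. Spots of 1 array share labelling, hybridization and scan, so the spread between arrays holds those steps as well as any difference between cultures. The MPE level was 0.948 times vehicle (0.836 to 1.08).

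**Figure D3:**
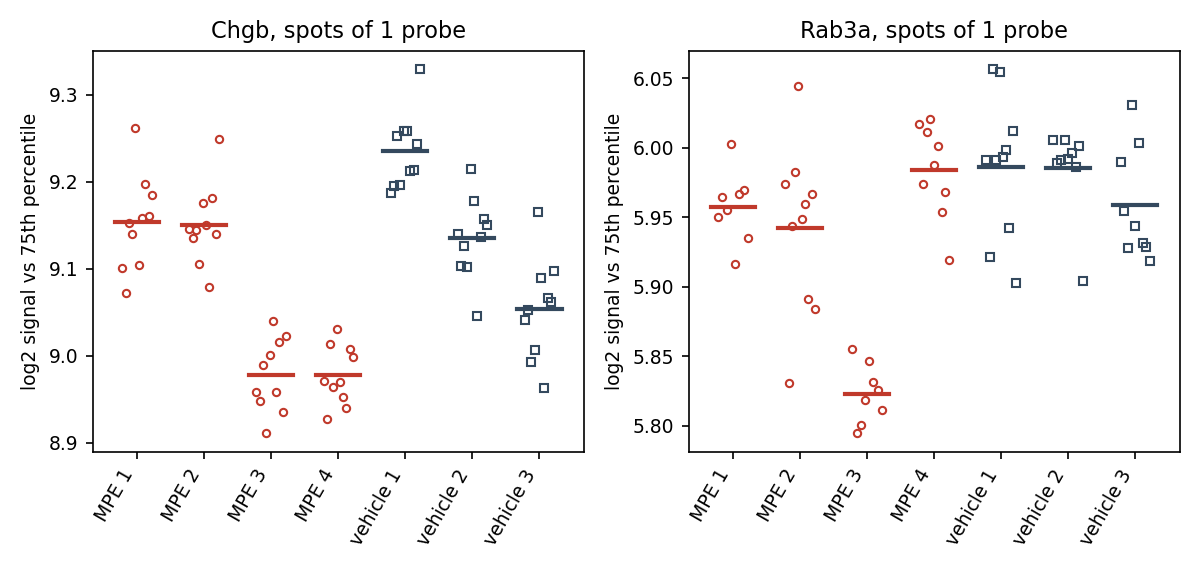
Log2 signal relative to the 75th percentile for each replicate spot of the Chgb probe (left) and of the brighter Rab3a probe (right) on each array, MPE arrays as circles and vehicle arrays as squares, with bars at the array mean. For Chgb the MPE arrays form an upper pair near 9.15 and a lower pair near 8.98, and for Rab3a MPE replicate 3, with a mean of 5.82, lies below the other arrays.

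Scg2, the precursor of secretoneurin, varied least among the granins. It stood at 8.42, 8.40, 8.27 and 8.39 on the MPE arrays, against 8.42, 8.43 and 8.36 on the vehicle arrays. The groups overlapped, and MPE was at 0.978 times vehicle (0.889 to 1.08). Scg3, which binds Chga and cholesterol-rich granule membrane, had 8.35, 8.33, 8.12 and 8.24 with MPE, against 8.35, 8.40 and 8.24 with vehicle. Its groups also overlapped, and its MPE level was 0.953 times vehicle (0.840 to 1.08).

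Vgf, a granin-related precursor that nerve growth factor induces in neuronal cells, was measured by 2 probes of the same transcript whose values are given separately. The brighter probe read 7.35, 7.25, 7.05 and 7.20 on MPE arrays and 7.37, 7.19 and 7.10 on vehicle arrays, with the groups overlapping and MPE at 0.994 times vehicle (0.849 to 1.16). On the dimmer probe the values were 1.65, 1.88, 1.64 and 1.81 with MPE, against 1.55, 1.63 and 1.49 with vehicle. All 4 MPE arrays lay above all 3 vehicle arrays there, the only one of the 16 probes with groups that did not overlap, in a background of 1.29% of all probes with MPE above and 3.38% with MPE below. The gap between MPE replicate 3 at 1.642 and vehicle replicate 2 at 1.626 was smaller than the SD within either group. Its log2 difference was 0.19 (SE 0.08), with an unadjusted limma p of 0.0468 and an adjusted p of 1.

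The phosphatase-like proteins sit in the same granule membrane. Ptprn, whose cytoplasmic part links granules to the cytoskeleton, read 3.74, 4.04, 3.82 and 3.82 with MPE on its brighter probe, against 3.64, 3.60 and 3.79 with vehicle. MPE replicate 2 was the highest array and vehicle replicate 3 lay inside the MPE range. The log2 difference of 0.18 (SE 0.09, limma adjusted p = 1) corresponded to 1.13 times vehicle (0.977 to 1.31). Ptprn's dimmer probe gave 0.13, 0.35, 0.11 and 0.12 with MPE, against 0.17, 0.18 and 0.08 with vehicle. There MPE replicate 2 alone was high, and the log2 difference was 0.03 (SE 0.08), turning to -0.022 without that array.

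Ptprn2 (phogrin) had 7.06, 7.01, 6.73 and 6.81 on its brightest probe with MPE, against 6.95, 6.99 and 6.81 with vehicle. The groups overlapped almost fully, at 0.992 times vehicle (0.844 to 1.17). Its other probes were dim, between -0.42 and 0.23 over all arrays, and fitted log2 differences of -0.14 (SE 0.18) and 0.05 (SE 0.14) with opposite signs. Neither of these passed the adjusted threshold.

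Of the Rab GTPases, Rab3a, which cycles between the granule and the cytosol and binds rabphilin and RIM proteins, also had replicate spots, from 8 to 10 per array after 7 outlier-flagged spot values were left out. Its array means were 5.96, 5.94, 5.82 and 5.98 with MPE, against 5.99, 5.99 and 5.96 with vehicle. MPE replicate 3 was the lowest array, and MPE was at 0.966 times vehicle (0.879 to 1.06). The SD over spots was 0.021 to 0.060 and the SD of array means within groups 0.056. The dimmer Rab3a probe, assigned to another transcript of the gene, ran from 1.38 to 1.72 with MPE and from 1.21 to 1.68 with vehicle, with a log2 difference of 0.13 (SE 0.13). That difference was 0.002 without vehicle replicate 1, the lowest array, and 0.238 without vehicle replicate 3.

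Rab27a, which docks granules through granuphilin (the product of Sytl4), read 0.98, 0.99, 0.54 and 0.72 with MPE on its brighter probe, against 0.71, 0.83 and 0.65 with vehicle. MPE arrays were both the highest and the lowest, and the level was 1.05 times vehicle (0.859 to 1.29). The dimmer Rab27a probe was the dimmest of the 16, from -3.89 to -2.82 with MPE and from -3.55 to -3.07 with vehicle, and it had the widest interval, 0.636 to 1.43 times vehicle. Rab37, a Rab found on secretory granules in several cell types, varied little, with 3.21, 3.21, 3.12 and 3.04 on MPE arrays and 3.17, 3.10 and 3.14 on vehicle arrays. The vehicle values lay inside the MPE range, and MPE stood at 1.01 times vehicle (0.906 to 1.11).

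Most members shared a course over the arrays within each treatment. Taking each gene's brightest probe as its deviation from its own mean over the 7 arrays, the mean over the 10 members was 0.07, 0.08, -0.13 and -0.04 on MPE replicates 1 to 4, and 0.05, 0.03 and -0.06 on vehicle replicates 1 to 3. On MPE replicate 3, 9 of the 10 were below their own mean and only Ptprn was above, whereas on MPE replicate 1 only Ptprn was below. The 565 tested probes with a mean above the 99th percentile of signal had median deviations of 0.05, 0.03, -0.12 and -0.05 on the MPE arrays and 0.08, 0.07 and -0.05 on the vehicle arrays. These medians had the same sign as the member means on all 7 arrays. The 565 probes include the brightest probes of the 5 granins, whereas those of the other members had mean percentiles of 79.2 to 98.99. Ppy, given above, was also lowest on MPE replicates 3 and 4 and vehicle replicate 3, whereas Sst was highest on those arrays. Gcg was lowest on MPE replicate 3 and highest on MPE replicate 4. The part of any of these in the members' course was not tested. The median over all 28938 probes stayed between -0.017 and 0.015.

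**Figure D4:**
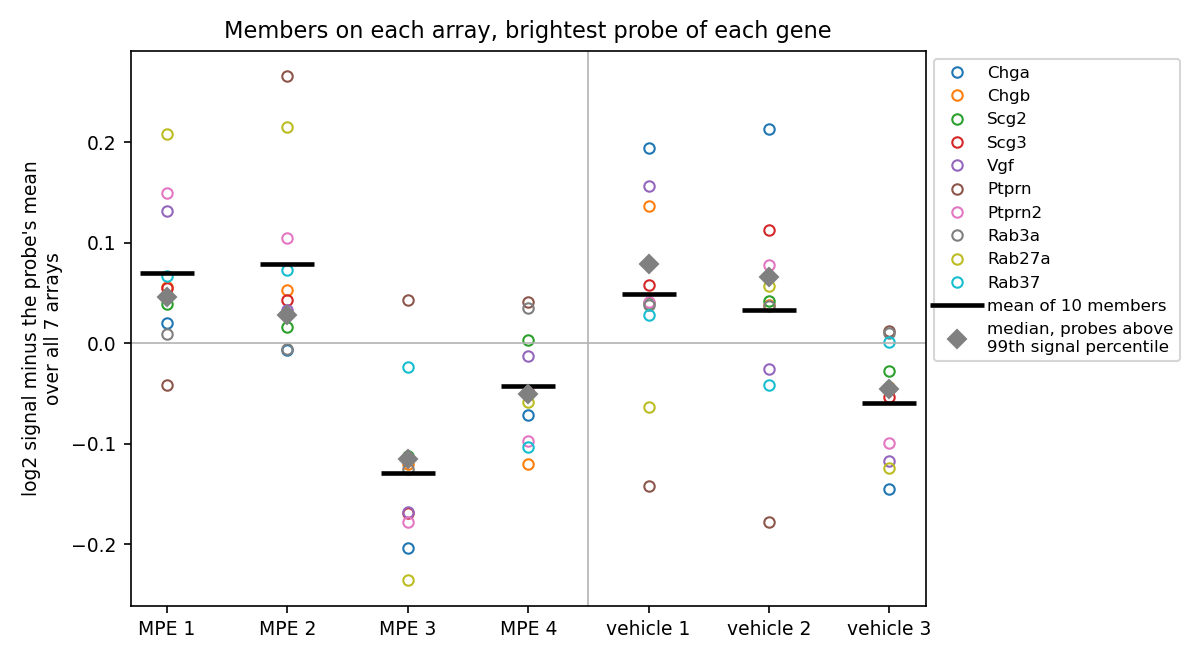
Deviation of each member's brightest probe from its own mean over the 7 arrays (y axis, log2), by array, with MPE arrays left of vehicle arrays. Black bars are the mean of the 10 members and grey diamonds the median of all tested probes above the 99th percentile of signal. Bars and diamonds are lowest on MPE replicate 3, at -0.13 and -0.12, and Ptprn lies opposite to most members on several arrays.

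Among the 45 pairs of members Pearson's r over the 7 arrays had a median of 0.64, from -0.59 (Chga with Ptprn) to 0.95, and was above 0 for 37 pairs. These are descriptions over 7 arrays that share scanning, scaling and the 2 treatments. Of 13631 other named genes, those most like the mean profile of the members were Hadha (fatty-acid oxidation), Ndufa12 (respiratory chain), Pycard (inflammasome adaptor), Wdr19 (transport in cilia) and Mgat5b (a glycosyltransferase), with r of 0.990 to 0.996 over the 7 arrays. These are the highest values among all genes compared.

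A log2 ratio between 2 members on the same array does not change when the whole array is scaled by a constant. In 14 such ratios within the granins, the phosphatase-like proteins and the Rabs, differences between MPE and vehicle ran from 0.01 to 0.19 in size. An exact two-sided permutation test over the 35 splits can give a p no smaller than 0.0286, and adjustment over the 14 ratios takes a single ratio at that floor to 0.4, so 1 separated ratio could not pass and the adjusted values say nothing of stability. The ratio of Chga to Vgf was the only one whose groups did not overlap, at 2.281, 2.353, 2.357 and 2.335 with MPE, against 2.429, 2.633 and 2.365 with vehicle. Its log2 difference was -0.14, with an exact permutation p of 0.0286 and an adjusted p of 0.4, both at their floor. Without vehicle replicate 2 that difference was -0.066, and in the authors' deposited value table it was -0.039. Vehicle replicate 2 had the highest ratio, and vehicle replicate 3 lay close above the MPE range. Scg2 to Scg3, the granins nearest in signal, differed by 0.08, 0.07, 0.15 and 0.15 with MPE and by 0.08, 0.02 and 0.12 with vehicle. Ptprn to Ptprn2 differed by 0.19 with overlapping groups (exact permutation p = 0.2), and by 0.118 without vehicle replicate 2 and 0.302 without vehicle replicate 3.

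Around the members, 7 lists held 120 genes of granule cargo, docking, biogenesis, acidification, fusion and transcription, of which 109 were tested with 1 probe per gene. Limma called 0 of them higher and 0 lower over all 22098 genes tested, in a background of 0.00453% called higher and 0% lower. At an unadjusted p under 0.05 there were 0 higher and 1 lower, against 0.756% and 3.35% of all genes. The single gene was Snap25, a SNARE of the plasma membrane, at 0.828 times vehicle (0.697 to 0.982, limma adjusted p = 1). Over the 109 genes 37 were fitted higher and 72 lower, with a median of -0.03 on the log2 scale, against -0.016 over all genes. That split was 10 to 99 with each array scaled to its median and 43 to 66 with quantile normalization. For 108 of the 109 the 95% interval lay within 1.5-fold.

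In granule cargo and processing, 3 of 15 genes were fitted higher and 12 lower, none past the threshold, with a median log2 difference of -0.07. The split was 2 to 13 with median scaling and 5 to 10 with quantile normalization, where the median was -0.012. Ins1 and Ins2, the insulin genes, stood at 0.900 (0.755 to 1.07) and 0.881 (0.744 to 1.04) times vehicle. As for Chga, vehicle replicates 1 and 2 had the highest signals of both insulin genes and vehicle replicate 3 a lower one. The convertases Pcsk1 and Pcsk2 were at 1.02 and 0.930 times, and the carboxypeptidase Cpe, which trims the cut peptides, at 0.987 times. Scg5, the chaperone of Pcsk2, was at 0.996 times, and Pcsk1n, an inhibitor of Pcsk1, at 0.936 times. The granule zinc transporter Slc30a8 was at 0.976 times. All of these had a limma adjusted p of 1.

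Among Rab effectors and docking regulators 18 of 24 genes were tested, with 7 fitted higher, 11 lower and none called (median -0.03). That became 2 to 16 with median scaling and 6 to 12 with quantile normalization. Granuphilin's gene Sytl4 was at 0.953 times vehicle (0.872 to 1.04) and the Rab3a effector Rims2 at 1.14 times (0.933 to 1.38). Rph3a, which encodes rabphilin, and the priming factor Unc13a were at 1.00 and 0.975 times. Exph5, an effector of Rab27a, was above background on no array. In the other secretory Rabs 3 of 12 were fitted higher and 9 lower (median -0.05), or 0 and 12 with median scaling and 2 and 10 with quantile normalization. Rab3b and Rab3d, paralogs of Rab3a, were at 0.961 and 0.963 times. Rab3c, another paralog of Rab3a, and Rab27b were above background on no array.

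Of genes of granule biogenesis and partners of Ptprn and the granins, 4 of 18 were fitted higher and 14 lower, none called (median -0.04), or 2 and 16 with median scaling and again 4 and 14 with quantile normalization. Ica1 and Hid1, which act in granule formation, were at 0.930 and 0.960 times vehicle. Sntb2, the syntrophin that binds Ptprn, was at 0.910 times (0.775 to 1.07), and Ptbp1, which stabilizes mRNAs of granule proteins, at 0.925 times (0.806 to 1.06). The 21 genes of granule acidification split 11 higher to 10 lower with a median of 0.00, which became 2 to 19 with median scaling and 15 to 6 with quantile normalization, and the proton-pump subunit Atp6v0a1 was at 0.974 times. In SNAREs and calcium sensors 4 of 12 were fitted higher and 8 lower (median -0.05), or 0 and 12 with median scaling and 5 and 7 with quantile normalization. Vamp2, the SNARE of the granule membrane, was at 0.941 times and the calcium sensor Syt7 at 1.03 times. In transcription factors of neuroendocrine genes 5 of 13 were fitted higher and 8 lower (median -0.02), or 2 and 11 with median scaling and 6 and 7 with quantile normalization. Insm1 and Neurod1, transcription factors of endocrine cells, were each at 1.03 times. Rest, a repressor of neuronal and endocrine genes, was above background on no array.

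**Figure D5:**
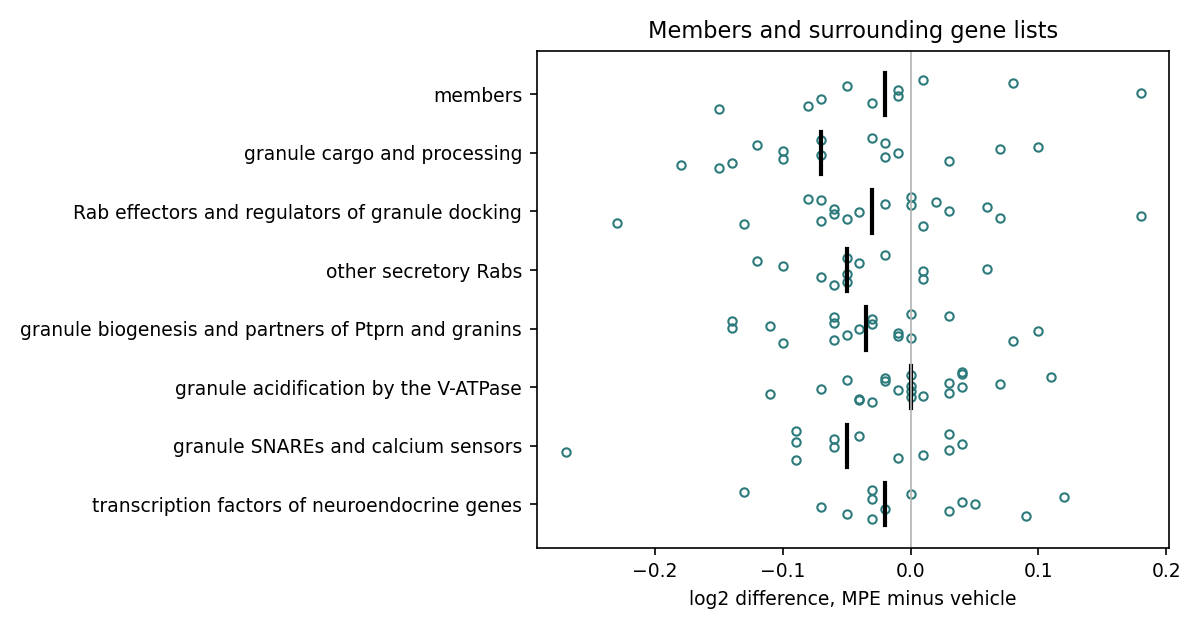
Log2 difference, MPE minus vehicle, of the 10 members (brightest probe of each gene) and of each tested gene in the 7 surrounding lists (points, with no vertical meaning inside a row), with the median of each row as a black bar. Medians lie between -0.07 for cargo and processing and 0.00 for acidification, and none of the genes shown was called.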

How the data were processed

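Cy3-labelled RNA was hybridized to 1-colour Agilent mouse arrays, as the labels' protocols state. Spot intensities in the deposited files had been processed by Agilent Feature Extraction 11.5.1.1 (background-subtracted and detrended within each array), per the file headers (the submitters' processing notes name 10.5.1.1), beside raw median intensities and quality flags. The authors' deposited value table holds log2 values whose columns share 1 median (4.438), and they correlate at 0.9996 or more with the log2 intensities of their own arrays, so they are not centred per probe. Which tool made them is not given here.

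Outlier-flagged spot values (611) were left out, a probe's log2 intensity was taken as the mean of its spots, and each array's 75th percentile was subtracted. A probe counted as well above background where the flag was set on at least as many of its spots as not, and probes so flagged on at least 3 arrays were tested (28938). Symbols came from RefSeq of GRCm38.p6, used for names only, since the file headers name an older mouse build. Of the probes 32994 matched 1 symbol. Lists used the probe of a gene with the highest mean. The difference of MPE from vehicle was fitted with limma 3.58.1 (lmFit, eBayes) under R 4.3.3 on treatment alone, with Benjamini-Hochberg adjustment and a threshold of 0.05, and the fit was tested on simulated data. Named genes were all members, genes picked by name from the lists, any list member called, and the 5 genes most like the members' mean profile. Snap25, Itgam, Tagln, Esam and Cel were named after their values were seen. The members and lists were chosen with earlier results of these data known. Alternatives were other scalings, filters, the value table, 1 probe per gene and another variance model. Others were replicate number or slide column as a block, and each array left out. Normexp was run on median spot and background intensities (mean intensities were not used here) and was followed by quantile normalization. The number of arrays limits the precision. Some markers of other islet cells are not reported here.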

Additional observations from a re-analysis of the deposited data

Results flagged for a closer look

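In 39 sets of 4 MPE values (the 16 member probes and the tested genes named from the lists), 3 had 1 array far from the other 3, where chance alone flags about 1 in 20, or 2.0 here. The dimmer Ptprn probe stood at 0.346 on MPE replicate 2, against 0.110 to 0.128 on the other MPE arrays. The proton-pump gene Atp6v0a1 stood at 5.512 on MPE replicate 3, against 5.703 to 5.712, the array on which 9 of the 10 members were also below their own mean. Neurod1 stood at 3.939 on MPE replicate 4, against 4.085 to 4.112.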

How the results depend on the processing

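No member probe passed the adjusted threshold in any setting run, and the order of the 16 probes by signal was the same in the authors' value table. The smallest limma adjusted p was 0.188, for the dimmer Vgf probe without a filter. Its log2 difference there was 0.192, as in the main setting, and 11545 probes were called higher and 404 lower in that run. Directions were less stable. By the brightest probe of each gene, 7 of the 10 members were fitted lower in the main setting. That count was 8 with median scaling, 3 with quantile normalization, 3 with normexp and 2 in the value table. The normexp setting also ended in quantile normalization, and the value table gave nearly the same differences as quantile normalization. These 3 settings are therefore not separate checks of direction. In the order quantile normalization, normexp and value table, log2 differences that turned were Chgb 0.022, 0.032 and 0.022, Scg2 0.048, 0.035 and 0.049, the brighter Vgf probe 0.032, 0.07 and 0.031, and the brightest Ptprn2 probe 0.024, 0.081 and 0.023, while Scg3 turned in the value table alone (0.00032). Median scaling turned the dimmer Ptprn probe (-0.035), the dimmest Ptprn2 probe (-0.018) and Rab37 (-0.063). With the slide column as a block Scg2 was at 0.001, and the brighter Vgf and brightest Ptprn2 probes at 0.046 each. Slide column 3 held MPE replicate 3 alone, so these block estimates are the same as those without that array. The cause of the turns with other scalings, normexp or the value table was not tested. Leaving out 1 array at a time gave ranges of log2 differences that crossed 0 for 7 probes, namely Scg2 (-0.055 to 0.001), the brighter Vgf probe (-0.069 to 0.068), the dimmer Ptprn probe (-0.022 to 0.057), the brightest (-0.065 to 0.046) and dimmest (-0.081 to 0.148) Ptprn2 probes, the dimmer Rab27a probe (-0.248 to 0.11) and Rab37 (-0.016 to 0.043). The ranges of the other probes did not cross 0. Among the granins they were Chga (-0.269 to -0.09), Chgb (-0.12 to -0.03), Scg3 (-0.115 to -0.022) and the dimmer Vgf probe (0.148 to 0.228). For the phosphatase-like proteins they were the brighter Ptprn probe (0.117 to 0.238) and the middle Ptprn2 probe (-0.293 to -0.049). For the Rabs they were the brighter (-0.069 to -0.016) and dimmer (0.002 to 0.238) Rab3a probes and the brighter Rab27a probe (0.015 to 0.165). The log2 ratio of Chgb to Scg3 turned to 0.021 in the value table and 0.056 with normexp, and that of Scg2 to Vgf to 0.018 in the value table, with leave-one-out ranges of -0.048 to 0.03 and -0.088 to 0.015. With 1 array left out the exact test of a ratio has too few splits to pass, so no call was read there.

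Labels give both treatments replicate numbers 1 to 3. The main fit did not take these numbers as pairs. Deviations of same-numbered arrays correlated at 0.35, 0.07 and 0.53, and those of arrays with different numbers at -0.44 to 0.38. Of the 3 MPE arrays with a vehicle array of their number, 2 correlated best with that array. Whether the numbers mark a shared step was not tested. With the replicate number as a block the brightest Ptprn2 probe was at 0.019 and the dimmer Rab27a probe at 0.11. MPE replicate 4 had no vehicle array of its number, so these estimates are the same as those without that array. In that block fit, over all probes, 0 were called higher and 0 lower.

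Over all probes limma called 1 higher and 2 lower. These counts were 1 and 3 with median scaling, 1 and 1 with quantile normalization and in the value table, 0 and 1 with normexp, 0 and 0 with the filter on all 7 arrays or with slide column as blocking term, 3 and 1 with a trended robust variance, 1 and 0 with 1 probe per gene, and 0 to 3 higher and 0 to 2 lower with 1 array left out. Without a filter they were 11545 and 404, and 1 list gene, Sytl2, was then called higher (log2 0.50) although it was above background on 0 arrays.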
